A study of Mus musculus with 4 samples.

Results

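The genes described here are 34 mouse genes of the endoplasmic reticulum (ER), the compartment in which secreted and membrane proteins are folded. They were taken by symbol from a list of such genes, and all 34 were present among the 32285 genes counted in every library. They comprise 17 chaperone and folding genes, 3 sensor or effector genes of the unfolded protein response, 8 genes of ER-associated degradation (ERAD), 5 translocon genes and 1 COPII coat gene. The study took 1 retina from each of 4 mice at postnatal day 30, namely a female and a male wild type (WT) and a female and a male NLGF, and ran each as 1 droplet-based single-cell library. The labels give NLGF as a genotype name only, and the series title places the mice among models of Alzheimer's disease. In that field NLGF is the usual name of a mouse line whose App gene carries humanised, mutated sequence. By its title the study concerns the stress response of the ER in Müller cells, the radial glia of the retina.

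Nascent proteins enter the ER through the Sec61 translocon, are folded by chaperones such as BiP (the product of Hspa5), and are packed into COPII vesicles for export. Proteins that do not fold are drawn back across the membrane and degraded, which is ERAD. When unfolded proteins accumulate, the IRE1, ATF6 and PERK branches of the unfolded protein response act. IRE1 (Ern1) splices Xbp1 mRNA, XBP1 and ATF6 raise chaperone and ERAD genes, and PERK raises translation of the transcription factor ATF4. The ATF4 arm is shared with other stress responses, whose downstream genes need not include ER chaperones.

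The libraries held 8060 to 9068 barcodes with medians of 945.5 to 1168.5 UMIs (unique molecular identifiers, counted once per captured RNA molecule), and 132 barcodes occurred in more than 1 library. After filtering, 31559 cells formed 22 clusters. Classes were named from marker genes and are Müller-like, rod-like and so on; 10 classes were named and 3 clusters, with 1519 cells, stayed unnamed. The Müller class held 151 cells from the WT female, 180 from the WT male, 207 from the NLGF female and 196 from the NLGF male, with 1185928 to 1859095 UMIs per library. All 14 Müller markers were detected in every library there. Astrocyte markers summed to 248 to 940 CPM in that class (UMIs per 1000000 UMIs of the class and library), with the highest value in the WT female, and rod markers to 1865 to 2290 CPM. Leaving out cells with 2 or more astrocyte markers changed no call among the ER genes in Müller glia, but it lowered the number with an unadjusted p under 0.05 from 8 to 4.

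The response elements bound by these branches were looked up in the 250 bases before the start of each gene, in RefSeq promoter windows of GRCm38.p6. Windows existed for 28 of the 34 genes. Matches were sought on both strands to the ER stress element ERSE (CCAAT and CCACG, 9 bases apart), ERSE-II (ATTGG and CCACG, 1 base apart), the core TGACGTGG of the unfolded protein response element, and the composite site TGATGNAA typical of ATF4 with a C/EBP partner. These 4 motifs were chosen with the change of Herpud1 already known. Stretches of 6 chaperone or ERAD promoters with an ERSE are shown beside that of Herpud1. Of these genes only Herpud1 was called in Müller glia below, where 1.28% of all genes tested were called. Letters in capitals are the fixed letters of a match.
Herpud1, chr8:94386312-94386392, plus strand: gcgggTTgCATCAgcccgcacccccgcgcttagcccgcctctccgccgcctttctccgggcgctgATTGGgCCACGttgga
Hspa5, chr2:34772020-34772048, plus strand: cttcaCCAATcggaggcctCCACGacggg
Calr, chr8:84847070-84847098, minus strand: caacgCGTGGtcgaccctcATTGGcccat
Canx, chr11:50325795-50325823, minus strand: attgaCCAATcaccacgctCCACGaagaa
Pdia6, chr12:17266486-17266514, plus strand: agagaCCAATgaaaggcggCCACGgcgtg
Dnajc3, chr14:118937822-118937850, plus strand: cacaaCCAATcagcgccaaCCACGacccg
Syvn1, chr19:6046527-6046555, plus strand: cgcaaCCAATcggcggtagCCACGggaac

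An ERSE was found for 9 of the 28 genes, against 0.113% of all promoter windows in the table. These were the chaperone and folding genes Hspa5, Hsp90b1, Calr, Canx, Pdia6, Dnajc3 and Creld2 and the ERAD genes Syvn1 and Derl3. Herpud1 alone among the 28 held an ERSE-II, which occurs in 0.0304% of all windows. It lay 52 to 42 bases before the RefSeq start. Herpud1 was also the only one with the ATF4 composite letters, here on the opposite strand at 112 to 105 bases before the start, which occur in 3.45% of all windows. Sec24d alone held the core TGACGTGG, found in 0.563% of windows. The motifs were chosen as response elements of the branches that raise such genes, so these shares are no independent test of enrichment. The matches describe letters in this window and are no evidence of binding.

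The baseline level of each gene was described first by cell class, as CPM of the counts summed over the cells of a class in 1 library. The classes come from clustering these same cells, 1 of the 34 genes among the variable genes used, so differences between classes are given with no test. Over the 4 libraries of both genotypes, Müller glia had the highest class mean for 3 genes, namely Dnajb9, Pdia6 and Herpud1. For Pdia6 that mean was 166 CPM, close to the 164 CPM of microglia, whose highest library reached 265 CPM. Müller glia had the lowest mean for 4, namely Hsp90b1, Hyou1, Xbp1 and Atf6. Against rods, 18 genes were higher in each of the 4 Müller libraries than in any rod library, 8 were lower in each, and 8 overlapped. The same count was not made over all genes, so it does not set ER genes apart from others. Müller cells and rods also differed in depth, with medians per library of 7663 to 11222 and 809 to 959 UMIs per cell. The part of depth in these differences was not tested.

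**Figure D1:**
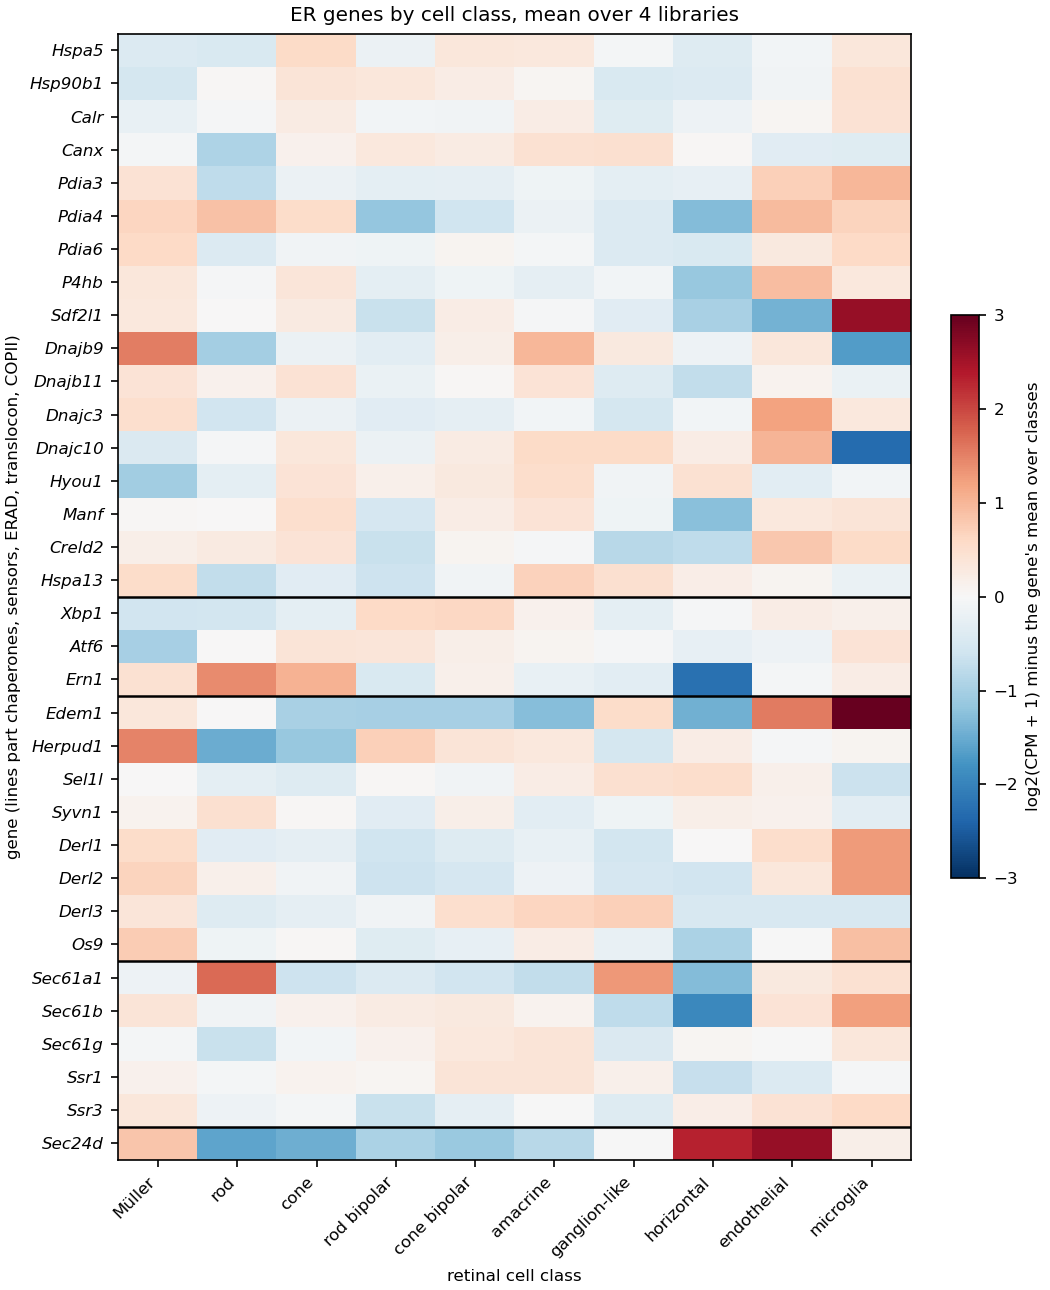
Level of the 34 ER genes (rows, in the 5 functional groups) in 10 retinal cell classes (columns). Colour gives log2 of the mean CPM plus 1 over 4 libraries, minus the gene's own mean over classes, so colours compare classes within a gene and not genes with each other. Dnajb9 and Herpud1 stand high in Müller glia, Sec61a1 in rods and ganglion-like cells, and Edem1 and Sdf2l1 in microglia.

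Among the chaperone and folding genes, the class means of a gene spanned a median of 3.34-fold from the lowest to the highest class. Dnajb9, which encodes the BiP co-chaperone ERdj4, stood at 97.0 and 99.5 CPM in the WT Müller libraries and at 125 and 148 CPM in the NLGF libraries. Every one of these values lay above the 73.0 to 85.6 CPM of amacrine cells, the next class, and above the 16.5 to 20.8 CPM of rods. Sdf2l1, a partner of ER DnaJ proteins, was highest in microglia, at 15.5, 73.9, 113 and 35.4 CPM, but on 1, 6, 6 and 1 UMIs. Dnajc10, an ER disulfide reductase, was highest in the endothelial class at 115 to 185 CPM. That class also carried pericyte markers (8 of 8 in 3 libraries and 6 of 8 in the NLGF female), which summed to 3002 to 11236 CPM beside 11693 to 14037 CPM for endothelial markers. Its lowest class, microglia, held 3 UMIs in all.

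The ATP-driven ER chaperones Hspa5 and Hsp90b1 stood low in Müller glia and high in microglia and cones. Hspa5 averaged 537 CPM in cones, 457 CPM in microglia (371 to 542, on 13 to 44 UMIs) and 273 CPM in Müller glia, close to its 264 CPM in rods, and the ranges of Müller glia (244 to 306 CPM) and rods (253 to 280 CPM) overlapped. Hsp90b1, the ER member of the HSP90 family, averaged 371 CPM in Müller glia (334 to 388) and 554 CPM in rods (528 to 587), without overlap. Its highest class was microglia, at 634, 849, 472 and 1027 CPM on 25 to 69 UMIs. Hyou1, an exchange factor of BiP, averaged 19.4 CPM in Müller glia and 59.4 CPM in amacrine cells. Its Müller range of 13.7 to 22.8 CPM reached into that of endothelial cells, which began at 18.1 CPM.

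Of the 3 sensor and effector genes, Atf6 averaged 28.6 CPM in Müller glia and 58.6 CPM in rods, without overlap. Xbp1 averaged 56.3 CPM in Müller glia and 57.5 CPM in rods, which overlapped, against 130 CPM in cone bipolar cells. Ern1 was highest in rods, at 18.3, 16.3, 24.5 and 17.5 CPM, the WT female and male first and then the NLGF female and male, an order kept for all lists of 4 values. Cones followed at 12.8 to 16.2 CPM, just below the lowest rod library, and horizontal cells held a single Ern1 UMI in all. All 3 genes were thus measured in Müller glia, 2 of them at a lower mean than in any other class.

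Herpud1 encodes a ubiquitin-like ER membrane protein that organises the ERAD ligase. Its baseline is the WT level: 115 and 109 CPM in Müller glia, close to 108 and 110 CPM in rod bipolar cells, whereas rods of the same 2 animals had 22.5 and 18.5 CPM. In WT retinas the 2 classes therefore overlapped, with means of 112 and 109 CPM. In the NLGF libraries they stood apart, at 262 and 251 CPM in Müller glia and 112 and 98.5 CPM in rod bipolar cells. Edem1, a mannosidase-like protein that hands glycoproteins to ERAD, was highest in microglia, on 4, 4, 6 and 2 UMIs or 49.2 to 113 CPM, above the endothelial range of 13.5 to 36.1 CPM. Derl1, Derl2 and Os9, which form or feed the ERAD channel, were each highest in microglia with Müller glia next, with overlapping ranges. The microglial libraries held 28230 to 81241 UMIs in all, so these levels rest on few UMIs. Their lowest values were 18.9 CPM for Derl1 and 30.9 CPM for Derl2. Derl3 held 32 UMIs over all classes and is not described further.

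Among translocon genes, Sec61b, a small subunit of the channel, was highest in microglia (278, 209, 302 and 142 CPM) and lowest in horizontal cells (18.8 to 28.0 CPM). The microglial values again rest on few UMIs, with 28230 UMIs of all genes in the NLGF male. Sec61a1, the channel-forming subunit, had its highest mean in rods, at 326, 395, 357 and 268 CPM, and stood at 82.2 to 105 CPM in Müller glia. That order followed the depth of the cells. In the 6 clusters with a median under 1000 UMIs per cell, which included rod, ganglion-like and unnamed clusters, Sec61a1 averaged 256 to 607 CPM, and in the 11 clusters with a median above 4000 UMIs it averaged 54.4 to 127 CPM. The rod cluster of deepest cells, with a median of 2270 UMIs, had 172 CPM. The part of depth in the level of Sec61a1 was not tested.

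**Figure D2:**
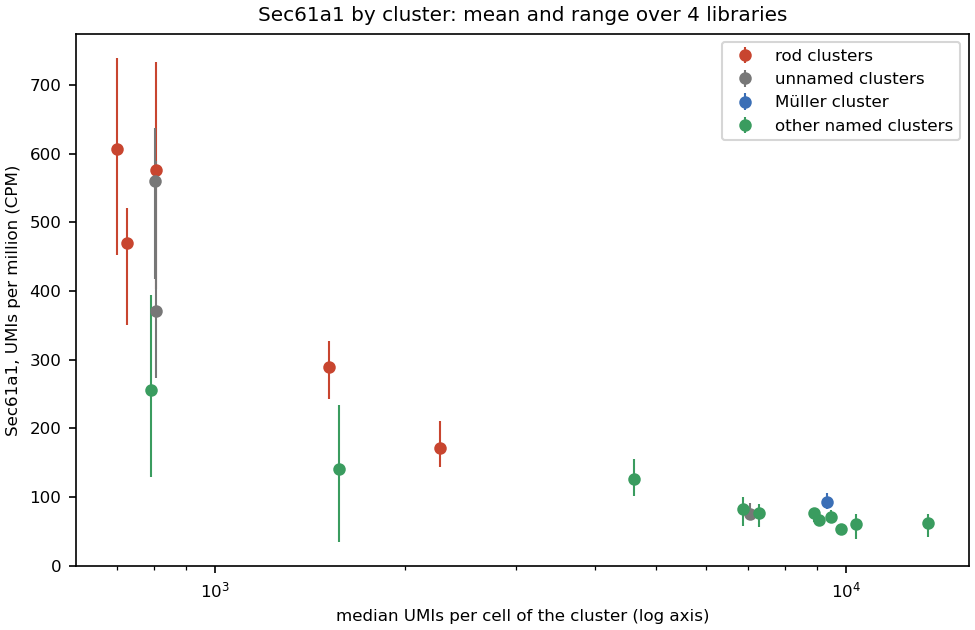
Sec61a1 level in 20 cell clusters (those with at least 10 cells in every library) against the median UMIs per cell of the cluster, on a log axis. Points are means and lines the range over 4 libraries; the shallow clusters, with medians under 1000 UMIs, lie between 256 and 607 CPM, and those above 4000 UMIs between 54.4 and 127 CPM.

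Sec24d, a cargo-binding subunit of the COPII coat, had the widest span between classes, Derl3 aside. It averaged 30.003 CPM in endothelial cells (43.6, 23.6, 20.3 and 32.5 CPM, on 2 to 12 UMIs), 7.99 CPM in Müller glia and 0.676 CPM in rods. The pericyte markers of the endothelial class, at 11236, 6603, 3002 and 7537 CPM, ranked the 4 libraries in the same order as Sec24d did. The part of pericyte RNA in that level was not tested. The Müller libraries, at 6.04 to 10.3 CPM, all lay above the rod libraries, at 0.520 to 0.816 CPM. Its horizontal cell range of 3.33 to 37.6 CPM overlapped both Müller glia and endothelial cells.

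NLGF and WT retinas were then compared within Müller glia, with counts summed per library and edgeR's quasi-likelihood test across all genes. One ER gene rose and another fell: Herpud1 was higher in NLGF and Sec61b was lower. No chaperone, sensor or COPII gene passed the threshold of an adjusted p of 0.05. Of the 34 genes 33 passed the filter on low counts (Derl3 did not), so 2 of 33 were called, against 1.28% of all 10901 genes tested. Of these 1 was higher, against 0.725% of all genes, and 1 lower, against 0.56%. Tests rest on 2 animals per genotype. The labels name no litter or sequencing batch, so such differences cannot be told apart from genotype here.

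Herpud1 stood at 117 and 113 CPM in the WT female and male and at 261 and 248 CPM in the NLGF female and male (all CPM in this comparison are scaled by TMM factors). Both NLGF values were more than 100 CPM above both WT values. The log2 fold change was 1.15 ± 0.10 (SE), with an adjusted p of 8.77e-09 from edgeR, and it was 1.15 between the females and 1.14 between the males. The change was spread over cells: 136, 199, 487 and 464 Herpud1 UMIs came from 81, 115, 169 and 166 cells, and no single cell held over 3.68% of them. Without the WT female or without the WT male the log2 fold change was 1.17 and 1.12, but the adjusted p rose to 0.625 and 0.684, and neither of those fits called any gene. Herpud1 lies on chromosome 8 at 94386438 to 94395377 (plus strand, GRCm38), and a gene on the opposite strand there, Gm15890, held 6 UMIs in Müller glia against 1286 for Herpud1.

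Sec61b stood at 149 and 157 CPM in the WT libraries and 118 and 106 CPM in the NLGF libraries, which did not overlap. Its log2 fold change was -0.46 ± 0.11, with an adjusted p of 0.0353 by edgeR. This call was near the threshold and was lost with DESeq2, without the filter on low counts, after thinning to the depth of the smallest library, with the bias-adjusted quasi-likelihood test, with a shallow Müller-marker cluster joined and without any 1 of the 4 libraries. The 4 other translocon genes were not called and spanned -0.18 (Sec61a1) to 0.17 (Ssr3, of the translocon-associated protein complex), so the translocon group did not move together. Sec61a1 had 89.5, 109, 95.2 and 81.3 CPM, which overlapped between genotypes.

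**Figure D3:**
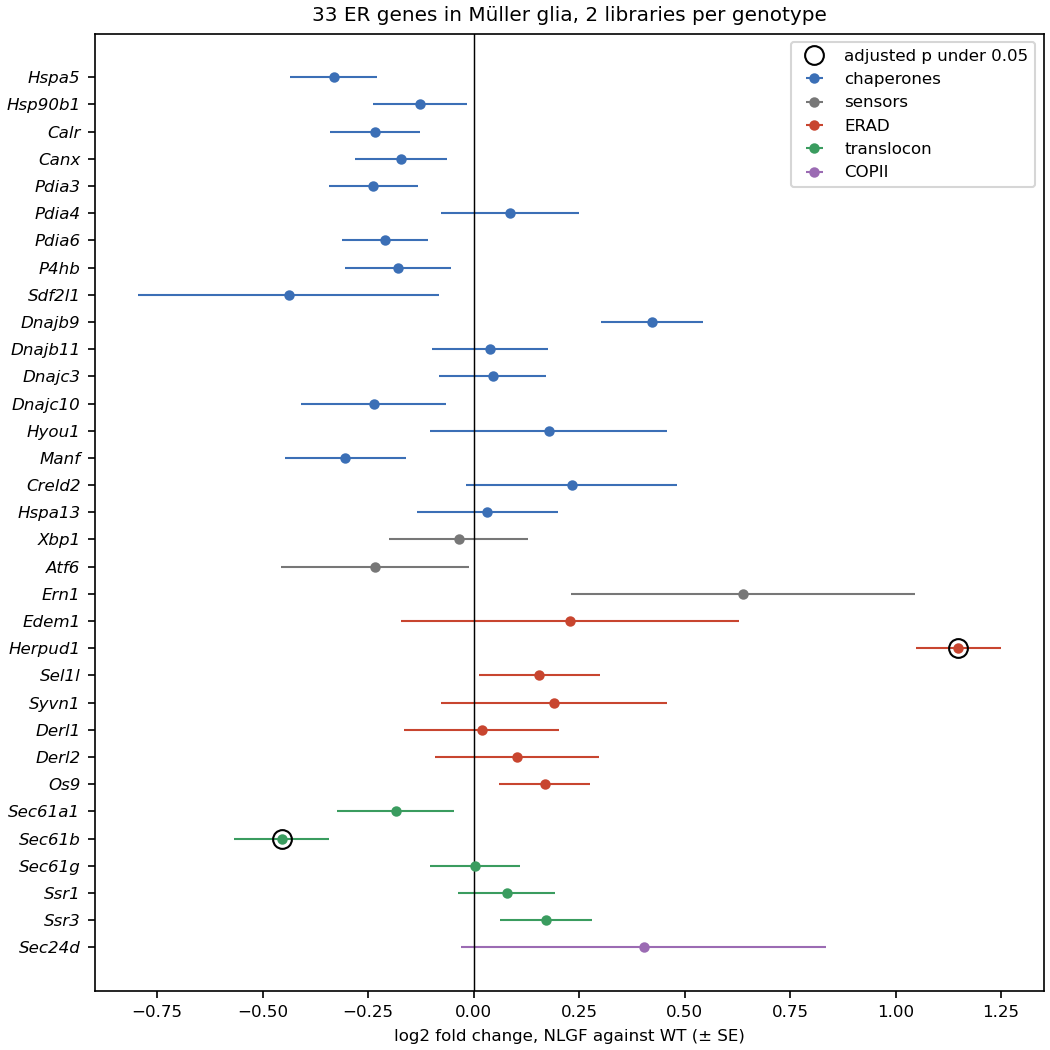
Log2 fold change of NLGF against WT in Müller glia for the 33 ER genes tested, with standard errors, coloured by functional group; black rings mark an adjusted p under 0.05. Herpud1, at 1.15, stands apart on the right, and 10 of the 17 chaperone and folding genes lie left of 0.

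The chaperone and folding genes leaned the other way from Herpud1. Their median log2 fold change was -0.17, against 0.00 over all genes tested, and 7 of the 17 were positive. Of those 7, Dnajb9 and Creld2 were positive under every alternative run, and Pdia4, Dnajb11, Dnajc3, Hyou1 and Hspa13 were negative under at least 1. Hspa5 had 299.6 and 316 CPM in the WT libraries and 243 and 247 CPM in the NLGF libraries, a log2 fold change of -0.33 ± 0.10 whose adjusted p of 0.124 missed the threshold. Manf, a secreted survival factor that binds BiP, had 89.5 and 88.4 CPM in WT and 71.7 and 72.2 CPM in NLGF, a log2 fold change of -0.30 ± 0.14 with an adjusted p of 0.416. Neither gene overlapped between genotypes, and neither was called. A single cell held 15.4% of the Manf UMIs of the WT female, and without cells with astrocyte markers the value for Manf was -0.17. Manf also overlaps Rbm15b on the same strand and Dcaf1 on the opposite strand. These held 101 and 209 UMIs in Müller glia against 529 for Manf.

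Among the disulfide isomerases and lectin chaperones, Pdia3, Pdia6, P4hb, Calr and Canx had negative values, and Pdia4 a positive one (0.09 ± 0.16) that was -0.13 without the WT male. Pdia3, which works with calreticulin and calnexin on glycoproteins, had 344, 323, 293 and 272 CPM (log2 fold change -0.24, adjusted p 0.383 by edgeR). Calr, which encodes calreticulin, had 299.6, 256, 226 and 244 CPM (-0.23, adjusted p 0.393), and without the WT female its value was -0.13. Pdia6 had 189, 172, 159 and 151 CPM (-0.21, adjusted p 0.438). In each of these 3 genes the lower WT library lay above the higher NLGF library, by amounts that did not pass the test. Hsp90b1 had 392, 390, 386 and 330 CPM, with the NLGF male alone standing lower (-0.13, adjusted p 0.746, and -0.02 without that library).

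Dnajb9 was the chaperone gene with the largest positive value. It stood at 99.0 and 103 CPM in WT and at 125 and 146 CPM in NLGF, without overlap, a log2 fold change of 0.42 ± 0.12. Its adjusted p was 0.0882 by edgeR. It passed the threshold with sex as a block and with doublets kept, where 2.59% and 2.33% of all genes were called. The remaining 10 chaperone and folding genes lay between -0.44 (Sdf2l1, on 18 to 20 UMIs per library) and 0.23 (Creld2), each with an unadjusted p above 0.05.

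The 3 sensor and effector genes were not called. Xbp1 transcripts stood at 61.1, 54.4, 55.1 and 56.7 CPM and overlapped (log2 fold change -0.04 ± 0.17). These values count all Xbp1 RNA and say nothing of its splicing. Atf6 stood at 32.7, 30.03, 24.6 and 28.4 CPM (-0.23 ± 0.22). Ern1 rested on 9, 12, 17 and 25 UMIs, or 7.75, 6.80, 9.09 and 13.4 CPM, and its log2 fold change of 0.64 ± 0.41 had an adjusted p of 0.616.

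In the ERAD group all 7 tested genes had a positive log2 fold change, with a median of 0.17, but 6 of them lay between 0.02 and 0.23. Derl1 and Derl2 did not keep that sign: across the alternatives Derl1 went from -0.07 to 0.12, lowest without the WT male, and Derl2 from -0.03 to 0.23, lowest without the NLGF female. Sel1l, the adaptor of the HRD1 ligase, stood at 80.9, 82.1, 100.04 and 81.8 CPM, with the NLGF female alone standing higher. Its log2 fold change of 0.16 was 0.01 without that library. Syvn1, which encodes HRD1 itself, had 18.9 and 17.0 CPM in WT and 20.3 CPM in each NLGF library. Its reads overlap Mrpl49 on the opposite strand, which held 200 UMIs in Müller glia against 128 for Syvn1. Os9, an ERAD lectin, had a log2 fold change of 0.17 ± 0.11 and did not overlap between genotypes (adjusted p 0.622 by edgeR). Sec24d had 0.40 ± 0.43 on 9 to 19 UMIs per library.

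Genotypes did not overlap for 22 of the 33 genes (66.7%), against 41.2% of all genes tested in Müller glia. An unadjusted p under 0.05 was reached by 8 of the 33 (24.2%), against 11.3% of all genes. With DESeq2 it was 4 of 33 (12.1%, against 2.97% of all genes) and without cells with astrocyte markers 4 of 33 (12.1%, against 10.9%). On leaving out 1 library it was 3 or 4, the 4 without the WT male (9.09% to 12.1%, against 7.01% to 7.57%). The size of the excess over all genes thus depended on which cells and libraries entered. In the test of all 4 libraries the 8 were Herpud1, Sec61b, Hspa5, Dnajb9, Pdia3, Calr, Manf and Pdia6.

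Set against the motif matches, the 8 tested genes with an ERSE were Hspa5, Hsp90b1, Calr, Canx, Pdia6, Dnajc3, Creld2 and Syvn1. None of them passed the threshold, against 1.28% of all genes tested. At that share, 0 calls among 8 genes does not set them apart. The log2 fold changes of these 8 ran from -0.33 (Hspa5) to 0.23 (Creld2). Herpud1, with the ERSE-II and the ATF4 composite letters, passed the threshold. Sec61b, the other called gene, had no match to the 4 motifs in its window. Whether the motifs had a part in these values was not tested, nor was any difference between genes.

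Further genes of the same pathways, from wider lists, were also mostly not called in Müller glia. None of 39 other folding genes, none of 22 other ERAD genes and none of 11 other COPII genes passed the threshold by edgeR, against 1.28% of all genes. Of them 0, 2 and 2 had an unadjusted p under 0.05, against 11.3% of all genes. Of 29 other translocation and targeting genes 1 was called lower, against 0.56% of all genes. At such shares, 0 or 1 calls per list do not set these lists apart. The called gene was Dad1, a subunit of the oligosaccharyltransferase that sits beside the translocon. It fell from 294 and 265 CPM in WT to 191 and 213 CPM in NLGF, a log2 fold change of -0.46 ± 0.10 (adjusted p 0.0159). In the same cells 12 of 21 tested genes of the PERK and ATF4 arm were higher, against 0.725% of all genes, and 0 lower, with a median log2 fold change of 1.48. Among them Ddit3, which encodes CHOP, rose by 1.81 and Atf5 by 2.12 on the log2 scale. That list was drawn up with earlier results of these data known.

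A second cluster carried 13 of 14 Müller markers but had a median of 807 UMIs per cell and markers of the retinal pigment epithelium among its top genes, and it stayed unnamed. It held 109, 201, 205 and 186 cells. There 18 of the 34 genes could be tested and 0 were called by edgeR or by DESeq2, against 0.0262% of 3814 genes by edgeR. The translocon gene Sec61a1 alone had an unadjusted p under 0.05. Herpud1 stood at 59.3, 65.9, 66.9 and 112 CPM on 7 to 22 UMIs, a log2 fold change of 0.50 ± 0.45. With this cluster joined to the Müller glia, Herpud1 was the only ER gene called (1.12 ± 0.09, adjusted p 1.3e-06, against 0.95% of 11161 genes).

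In the other 8 classes that could be tested no ER gene was called by edgeR or DESeq2, in 216 gene and class pairs. The background share of called genes was also low there, at 0.00807% in rods, 0.0349% in cone bipolar cells, 0.0625% in amacrine cells, 0.0655% in ganglion-like cells and 0.096% in endothelial cells. It was 0 in cones, rod bipolar cells and microglia, where no gene of any kind was called. An unadjusted p under 0.05 was reached in 15 of the 216 pairs (6.94%), against 4.72% to 9.33% of all genes in the 8 classes, so the share of ER genes was near the background. Horizontal cells, with 9 to 24 cells per library, were not tested.

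**Figure D4:**
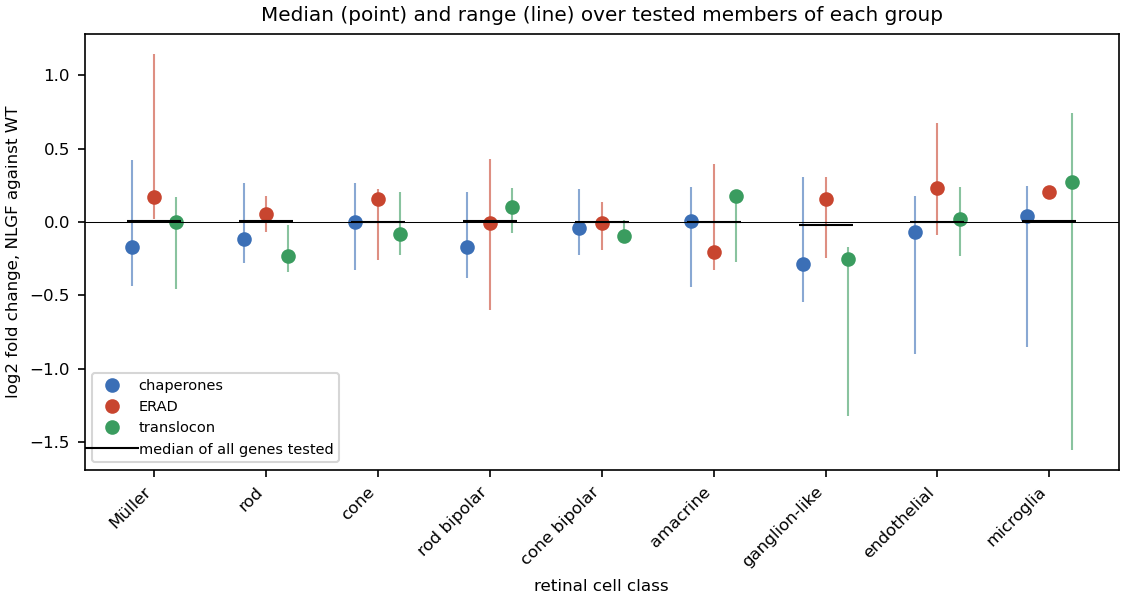
Median (point) and range (line) of the log2 fold change of NLGF against WT over the tested genes of the chaperone, ERAD and translocon groups, in 9 cell classes; black dashes are the median of all genes tested. The upper end of the ERAD line in Müller glia is Herpud1 at 1.15, and the chaperone median lies at -0.17 in both Müller glia and rod bipolar cells.

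Outside Müller glia the chaperone median ranged from negative values to slightly above 0. In rod bipolar cells the group's median log2 fold change was -0.17, 2 of 16 tested genes were positive, and 5 had an unadjusted p under 0.05. These 5 were the only ones of the 29 ER genes tested there (17.2%), against 6.15% of all genes. Calr there stood at 294, 325, 263 and 250 CPM (-0.28, adjusted p 0.401 by edgeR) and Hsp90b1 at 752, 774, 647 and 608 CPM (-0.28, adjusted p 0.441). Hspa5, Pdia3 and P4hb, the beta subunit of prolyl 4-hydroxylase and itself a disulfide isomerase, were the other 3, at -0.18, -0.23 and -0.38. In rods the chaperone median was -0.11, in endothelial cells -0.07, in cone bipolar cells -0.04, in cones 0.00, in amacrine cells 0.01 (10 of 17 positive) and in microglia 0.04 (6 genes tested). In ganglion-like cells it was -0.28, but the 2 tested sensors, with a median of -0.51, and the 5 translocon genes, with -0.26, were also negative there. The medians of different classes come from the same 4 animals and are not independent of each other.

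Cone bipolar cells had the opposite sign for BiP, though not they alone. Hspa5 stood at 397 and 457 CPM in the WT libraries and at 490 and 492 CPM in the NLGF libraries, a log2 fold change of 0.20 ± 0.07, and Manf at 79.9, 87.2, 101 and 96.0 CPM (0.23 ± 0.11). Neither passed the threshold (adjusted p 0.641 and 0.789 by edgeR). Their NLGF values lay above both WT values in each case. Hspa5 was also positive in cones (0.18) and microglia (0.03), and negative in the other classes tested outside Müller glia. Manf was also positive in endothelial cells (0.18), cones (0.07) and amacrine cells (0.02), and negative in rods, rod bipolar and ganglion-like cells.

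Sec61b in rods resembled its values in Müller glia, at 99.3 and 107 CPM in WT and 81.8 and 81.4 CPM in NLGF. The log2 fold change was -0.34 ± 0.08 with an adjusted p of 0.544, which became 0.0267 with sex as a block, where 1.15% of all genes were called. Without the WT female, 6 ER genes were called lower in rods, namely Sec61b, Sec61a1, Sec61g, Calr, Canx and Hsp90b1. That is 6 of 32 (18.8%), in a fit that called 7.25% of all 12948 genes, against 0.00807% with all 4 libraries. The rod results on translocon and chaperone genes thus rested on which WT library was compared.

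Sec61a1 in ganglion-like cells stood at 328, 457, 126 and 190 CPM, a log2 fold change of -1.32 ± 0.31. Its adjusted p was 0.352, and it was called with no filter on low counts, with sex as a block and without the WT female, where 0.453%, 0.55% and 1.18% of all genes were called. In these cells the summed level of 5 haemoglobin and related red cell markers was 35369, 14096, 16.4 and 6612 CPM and that of rod markers 19447, 10557, 8069 and 12440 CPM, in the same order of libraries. In microglia Sec61a1 rested on 13, 19, 5 and 1 UMIs (-1.55 ± 0.68, adjusted p 0.506). The part of other cells' RNA in these values was not tested.

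**Figure D5:**
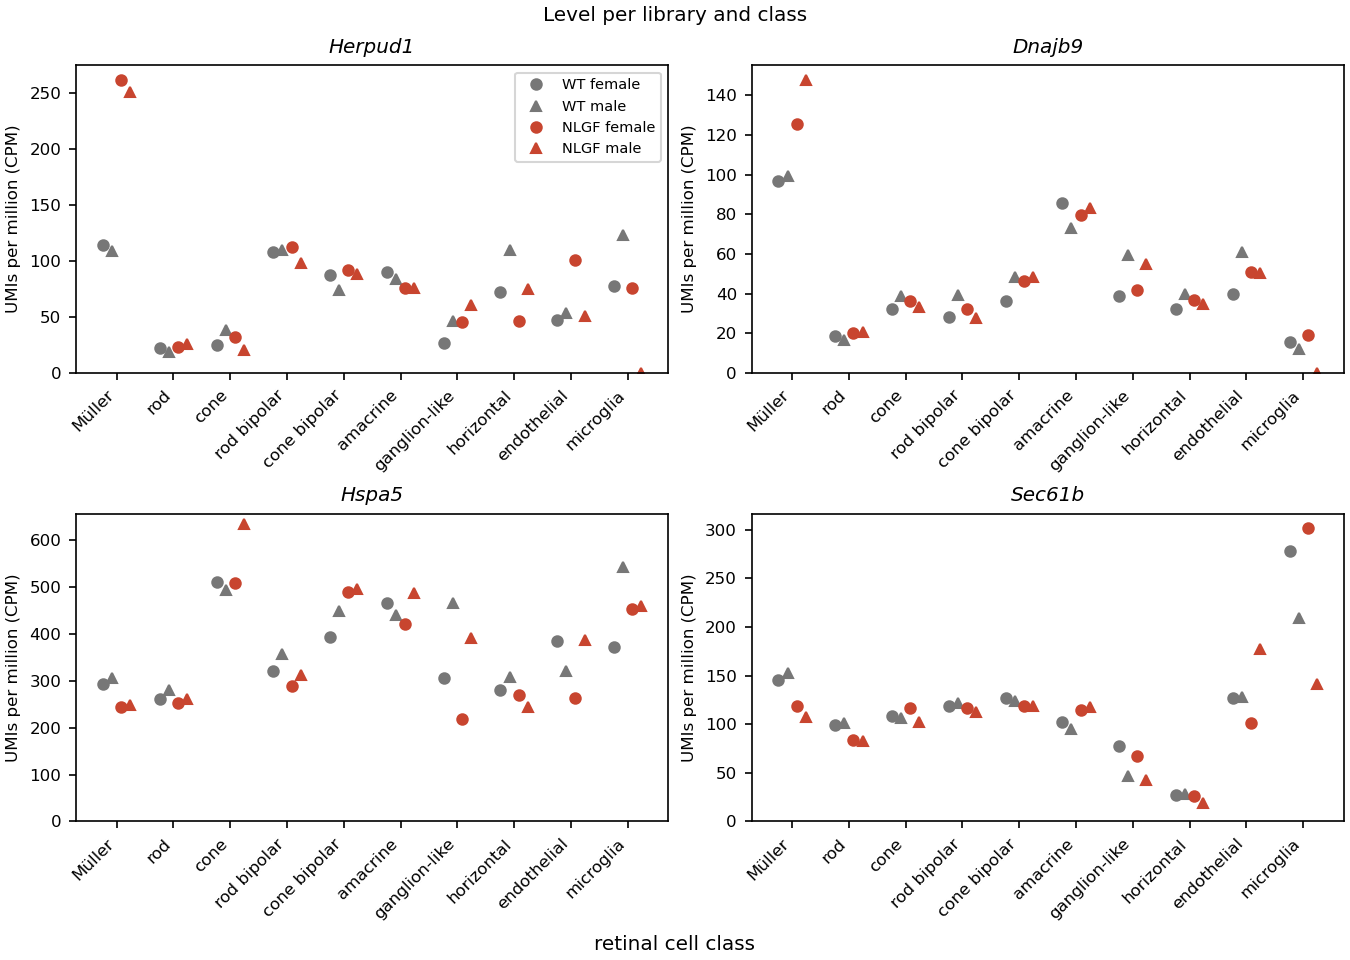
Level of Herpud1, Dnajb9, Hspa5 and Sec61b in each of the 4 libraries across 10 cell classes, in CPM of the summed counts (grey, WT; red, NLGF; circles, female; triangles, male). The 2 NLGF Müller libraries of Herpud1, at 262 and 251 CPM, stand above all other values of that gene, whose WT Müller libraries had 115 and 109 CPM.

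Whether the genotype effect differed between Müller glia and another class was tested directly, as an interaction with library as a block. Against rods, Herpud1 was the only ER gene called of 33 tested, with 0.391% of 13564 genes called in all. The effect in Müller glia exceeded that in rods by 0.97 ± 0.16 on the log2 scale (adjusted p 2.05e-05 by edgeR), where rods had 22.5, 19.6, 22.2 and 25.1 CPM and overlapped between genotypes. Leaving out each library in turn gave differences of 0.85 to 1.10 with adjusted p of 0.000102 to 0.0305, the highest without the NLGF female. Sec61b differed by -0.11 ± 0.13 between the 2 classes (adjusted p 0.910), which does not show that its changes were equal.

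The same test against the 7 other classes was added after the data had been seen. Herpud1 exceeded its effect in amacrine cells by 1.36 ± 0.18 (adjusted p 1.04e-06), in cones by 1.41 ± 0.27 (0.0042), in cone bipolar cells by 1.00 ± 0.16 (9.89e-07) and in rod bipolar cells by 1.22 ± 0.18 (2.73e-08). The share of all genes called was 0.223%, 0.137%, 0.445% and 0.257% in these 4 comparisons. Rod bipolar cells are the closest neighbour in baseline: their Herpud1 stood at 109, 112, 114 and 98.9 CPM and overlapped between genotypes. Against endothelial, ganglion-like and microglial cells the differences of 0.79 ± 0.46, 0.81 ± 0.43 and 2.40 ± 0.94 were not called; the share of all genes called was 0.247%, 0.0182% and 0.0322%. Those 3 classes held at most 31 Herpud1 UMIs per library.

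Besides Herpud1, Hspa5 was the only other ER gene whose effect in Müller glia was called different, and only against cone bipolar cells. The difference was -0.52 ± 0.14 (adjusted p 0.0344 by edgeR), between a negative value in Müller glia and a positive one in cone bipolar cells that each missed the threshold alone. Against cones the difference for Hspa5 was of like size, -0.51 ± 0.18, but was not called (adjusted p 0.576 by edgeR). It was -0.32 ± 0.15 against amacrine cells, -0.18 ± 0.11 against rods and -0.14 ± 0.15 against rod bipolar cells, none called. Against endothelial, microglial and ganglion-like cells it was -0.25 ± 0.27, -0.14 ± 0.58 and 0.15 ± 0.36, also not called. Dnajb9 was called different against none of the 8 classes.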

How the data were processed

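Droplet-based single-cell RNA-seq of 4 retinas was analysed. The deposited values are unnormalised UMI counts for each gene in each barcode, 1 matrix per library. The software was Cell Ranger 6.1.1 per the file headers, but 3.1.0 (with STAR, on mm10) per the submitters' processing notes. Use of introns and strand in counting: not given in the sources used here.

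Kept were 33329 of 35191 barcodes, those with 300 or more genes and no more than 20% mitochondrial UMIs. Scrublet's own threshold marked 2 cells, so the 6% of each library with the highest doublet scores (1770 cells) were removed. Cells were clustered with scanpy 1.11.5 (2000 variable genes, 30 components, 20 neighbours, Leiden resolution 1). Clusters were named from marker genes; one stayed unnamed where another class had more markers among its top 10 genes, where under 1 in 3 of its markers were detected, or where its top 10 genes held none of its markers and their mean z score was under 0.8. These rules were set after the data were seen. Median depths were 700 to 928 UMIs per cell in the ganglion-like class, which haemoglobin genes also led.

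Counts were summed per library and class (at least 10 cells in every library) and tested with edgeR 4.0.16 (TMM, filterByExpr, quasi-likelihood, a genotype term alone, p-values adjusted over all genes by Benjamini-Hochberg, threshold 0.05). The standard error is the absolute log2 fold change over the root of F. The test was also run on counts drawn from its own fitted means and dispersion trend in Müller glia and rods. Such counts meet its assumptions, so they do not check it against the real spread between animals. Alternatives were DESeq2 1.42.0, RLE factors, no filter, sex as a block, thinning, doublets kept, classes rebuilt without the 34 genes, and each library left out. With doublets kept, the ganglion-like cluster stayed unnamed, so that class was not refitted. A cluster of 4725 cells with rod markers, mostly from the female libraries, also stayed unnamed there and was missing from the rod refit. CPM of 1 to 3 UMIs carry large counting error.

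The 34 genes, the wider lists and the motifs were chosen with earlier results of these data known. Values per library were given for genes past the threshold, for those with an unadjusted p under 0.05 in Müller glia, for 11 set genes in Müller glia, and for the widest span between classes in each group. Promoter windows are RefSeq's (GRCm38.p6), and gene positions GENCODE M21's. Of the 34 genes 9 overlap another counted gene.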

Additional observations from a re-analysis of the deposited data

Results flagged for a closer look

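The genotype effect on Herpud1 was larger in Müller glia than in 5 other classes by the test of the difference itself. The difference on the log2 scale was 0.97 against rods, 1.36 against amacrine cells, 1.41 against cones, 1.00 against cone bipolar cells and 1.22 against rod bipolar cells. In none of these 5 classes did Herpud1 pass the threshold alone, with log2 fold changes of 0.17, -0.23, -0.26, 0.14 and -0.06 in that order. The genotype effect on Hspa5 differed between Müller glia and cone bipolar cells by -0.52, from -0.33 in Müller glia and 0.20 in cone bipolar cells. Against cones the Hspa5 difference was of like size, at -0.51, but was not called. The 6 called differences share the same 4 Müller libraries. All but the test against rods were added after the data had been seen and were not refitted under alternatives. P-values were adjusted within each comparison and not across them.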

How the results depend on the processing

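The 2 calls in Müller glia became 1 with DESeq2, with no filter on low counts, with thinned counts, with the bias-adjusted quasi-likelihood test and with the shallow cluster joined, Herpud1 in each; leaving out 1 library gave 0 to 1. The 0 calls in other classes became 1 with no filter, 2 with sex as a block, and 0 to 7 on leaving out 1 library. The 7 came without the WT female, 6 in rods, where 7.25% of all genes were called, and 1 in ganglion-like cells, where 1.18% were. With sex as a block and with doublets kept, the calls in Müller glia became 3, with Dnajb9 added. Those fits called 2.59% and 2.33% of all genes. All 33 tested genes were refitted in Müller glia under 14 alternatives. The sign changed under at least 1 of them for 9 genes with small values (at most 0.178 in size): Pdia4, Dnajb11, Dnajc3, Hyou1, Hspa13, Xbp1, Derl1, Derl2 and Sec61g. Xbp1 went from -0.127 to 0.0365 on leaving out 1 library and was positive without the WT female alone. Of the 15 genes given by library, 8 uncalled ones kept their sign but moved by over 1.5 times under some alternative: Hsp90b1, Calr, Manf, Atf6, Ern1, Sel1l, Syvn1 and Sec61a1. Herpud1 kept a log2 fold change of 1.12 to 1.23. Sex as a block pairs the WT and NLGF libraries of each sex. The bias-adjusted test and the joined cluster were added after seeing the data. Depth limits microglia, endothelial and ganglion-like cells most.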
